A study of Mus musculus and Meriones unguiculatus with 4 samples.

Results

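Krt1, Krtdap, Cnfn, Lypd3, Calml3, Sfn, Plac8, Grhl3, Elf3 and Ehf are genes of the differentiated surface layers of stratified epithelium. Their RNA levels were followed through 4 RNA sequencing libraries from the enamel knot region of gerbil and mouse tooth germs. The 10 genes were chosen by symbol, with their measured values in these libraries already known, so every level and difference of theirs is a description and none was tested. Each of the 10 symbols occurred once among the 25745 genes of the gerbil table and once among the 27632 loci of the mouse table.

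The gerbil group held wild-type Meriones unguiculatus embryos labelled embryonic day 15, with 2 libraries, and the mouse group held wild-type Mus musculus embryos labelled embryonic day 13, also with 2 libraries. After paraformaldehyde fixation and frozen sectioning of tooth germs, the enamel knot region was cut out by laser and SMARTer libraries were made from its RNA. The libraries are called E23 and E21 for gerbil and SEK and PEK for mouse, after the part of each column name that sets it apart. The labels do not explain these names, and E21 and E23 differ from the labelled day, so the 2 libraries of a species may not be replicates. Nothing in the labels says how many animals went into a library, and the spread between libraries may be technical.

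The enamel knot is a signalling centre in the dental epithelium, the inward fold of the oral lining that forms the tooth. The lining itself is stratified. Basal cells carry Krt5 and Krt14, cells that move outward switch to other keratins, and the outermost cells build a tough protein and lipid barrier under control of grainyhead and Ets-type transcription factors. Structural genes of that barrier are known as late products of differentiation, while its regulators act earlier and more broadly. In bulk RNA from a dissected region, more cells of a type and more RNA per cell cannot be told apart.

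Promoter sequences are shown for 3 genes that stand for the different behaviours described below: Krtdap, the member of the structural and surface genes with the highest level in SEK, Cnfn, with the largest ratio of SEK to PEK, and Elf3, a transcription factor with similar levels in both mouse libraries. They are RefSeq mouse promoters of build GRCm38.p6 and run from 250 bases before the start site to 20 bases past it, 5′ to 3′ on the strand of the gene. Capitals mark the letters of the motifs named after them. The Krtdap stretch is chr7:30787655-30787924 on the plus strand, the Cnfn stretch chr7:25369705-25369974 on the minus strand and the Elf3 stretch chr1:135258453-135258722 on the minus strand.
Krtdap: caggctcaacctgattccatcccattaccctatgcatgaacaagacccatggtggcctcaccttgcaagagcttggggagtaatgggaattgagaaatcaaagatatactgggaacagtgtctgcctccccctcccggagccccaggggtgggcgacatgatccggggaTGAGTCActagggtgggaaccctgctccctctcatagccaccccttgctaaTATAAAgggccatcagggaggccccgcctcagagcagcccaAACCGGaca
Cnfn: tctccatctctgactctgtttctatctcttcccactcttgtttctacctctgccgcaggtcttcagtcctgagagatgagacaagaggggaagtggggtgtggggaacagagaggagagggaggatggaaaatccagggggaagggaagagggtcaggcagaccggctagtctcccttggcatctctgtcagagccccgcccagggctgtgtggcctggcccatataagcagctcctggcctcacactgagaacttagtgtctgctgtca
Elf3: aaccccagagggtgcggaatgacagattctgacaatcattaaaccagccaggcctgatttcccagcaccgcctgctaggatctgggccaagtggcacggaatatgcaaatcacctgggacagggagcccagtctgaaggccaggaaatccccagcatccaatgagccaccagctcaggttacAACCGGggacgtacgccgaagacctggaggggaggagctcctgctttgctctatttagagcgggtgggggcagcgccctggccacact

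The RefSeq promoter table matched 7 of the 10 genes by symbol and did not hold Krt1, Calml3 and Ehf. In windows of 300 bases, 250 before the start and 50 from it on, 5 motifs were searched on both strands. The grainyhead-type letters AACCGG occurred in Krtdap, Elf3 and 1 of the 2 windows that the table holds for Plac8, against 6.83% of all 32851 promoters in the table. The AP-1 letters TGANTCA, where N is any base, occurred in Krtdap alone among the 7, against 7.81% of all promoters. The TATA box TATAAA was likewise found in Krtdap only, against 13.6% of all promoters. In Krtdap the AP-1 letters began 81 bases and the TATA box 30 bases before the start site. The Ets-type letters AGGAAGT (9.35% of all promoters) and the E-box CACGTG (7.15%) matched no window of the 7 genes, and no motif overlapped another. The Cnfn window held none of the 5. A match is a description of the sequence and not of binding.

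In mouse, structural and surface genes of the barrier stood far higher in SEK than in PEK, while the transcription factors of the group did not. Krt1, Cnfn and Plac8 were below 5 FPKM in PEK and above 200 FPKM in SEK. Of the 10 genes, 7 were at least 2-fold higher in SEK and 0 at least 2-fold lower, on deposited FPKM with a pseudocount of 1. Among all 15852 mouse loci with a mean of at least 1 FPKM, 7.04% were at least 2-fold higher in SEK and 17.1% at least 2-fold lower. The genes were chosen with this contrast known, so nothing is read from that count or from the median log2 difference of the 10, 3.31. Each library of the pair is 1 sample, which leaves this difference with no replicate check.

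Cnfn encodes cornifelin, a component of the cornified envelope, and had the largest ratio. It was at 274 FPKM in SEK and 0.279 FPKM in PEK, a 215-fold difference on the scale with the pseudocount (log2 7.75, and 9.50 with a pseudocount of 0.1). Plac8, which encodes a small cysteine-rich protein, followed at 213 FPKM in SEK and 2.14 FPKM in PEK (68.2-fold, log2 6.09). Both were thus among the abundant transcripts of SEK and low in PEK. Krt1, the type II keratin that replaces Krt5 in suprabasal epidermis, was at 247 FPKM in SEK and 4.35 FPKM in PEK (46.3-fold, log2 5.53). Calml3, which encodes a calmodulin-like protein of epithelial cells, was at 23.7 FPKM in SEK and 0.557 FPKM in PEK (15.8-fold, log2 3.99, and 5.18 with a pseudocount of 0.1). Calml3 thus shared the low PEK level of the first 3 genes, with a lower level than theirs in SEK.

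A further 3 genes were already well above 10 FPKM in PEK, or just there, and higher still in SEK. Krtdap, which encodes a small protein secreted by differentiating keratinocytes, was at 714 FPKM in SEK and 52.1 FPKM in PEK (13.5-fold, log2 3.75). Lypd3, which encodes a Ly6-family protein anchored to the surface of suprabasal cells, was at 83.1 FPKM in SEK and 10.6 FPKM in PEK (7.28-fold, log2 2.86). Sfn encodes 14-3-3 sigma, an epithelial adaptor that binds phosphorylated proteins and is a target of p53. It was the most abundant of the 10 in both mouse libraries, at 900.1 FPKM in SEK and 371 FPKM in PEK (2.42-fold, log2 1.28). By rank, Sfn stood at place 246 in SEK and 501 in PEK, and Krtdap at place 312 in SEK and 2600 in PEK, counted from the highest locus. Cnfn ranked 763 of the 21353 loci above 0 in SEK and 19210 of 22021 in PEK.

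The 3 transcription factors differed less between the mouse libraries. Grhl3, a grainyhead factor required for the skin barrier, was at 12.9 FPKM in SEK and 15.6 FPKM in PEK (log2 -0.26). Elf3, an Ets-domain factor of epithelia, was at 16.5 FPKM in SEK and 24.6 FPKM in PEK (log2 -0.55). Ehf, its relative, was at 3.52 FPKM in SEK and 1.44 FPKM in PEK (log2 0.89), with both values low. With the pseudocount of 1, none of the 3 passed 2-fold in either direction. The median over all measured mouse loci was -0.21, and relative to it each log2 difference is 0.21 higher. With that median set to 0, Ehf also passed 2-fold, which gave 8 of the 10 genes, and it did so too with a pseudocount of 0.1 (log2 1.23). The same step changed the counts over all loci from 1116 higher and 2706 lower in SEK to 1752 higher and 1812 lower.

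**Figure D1:**
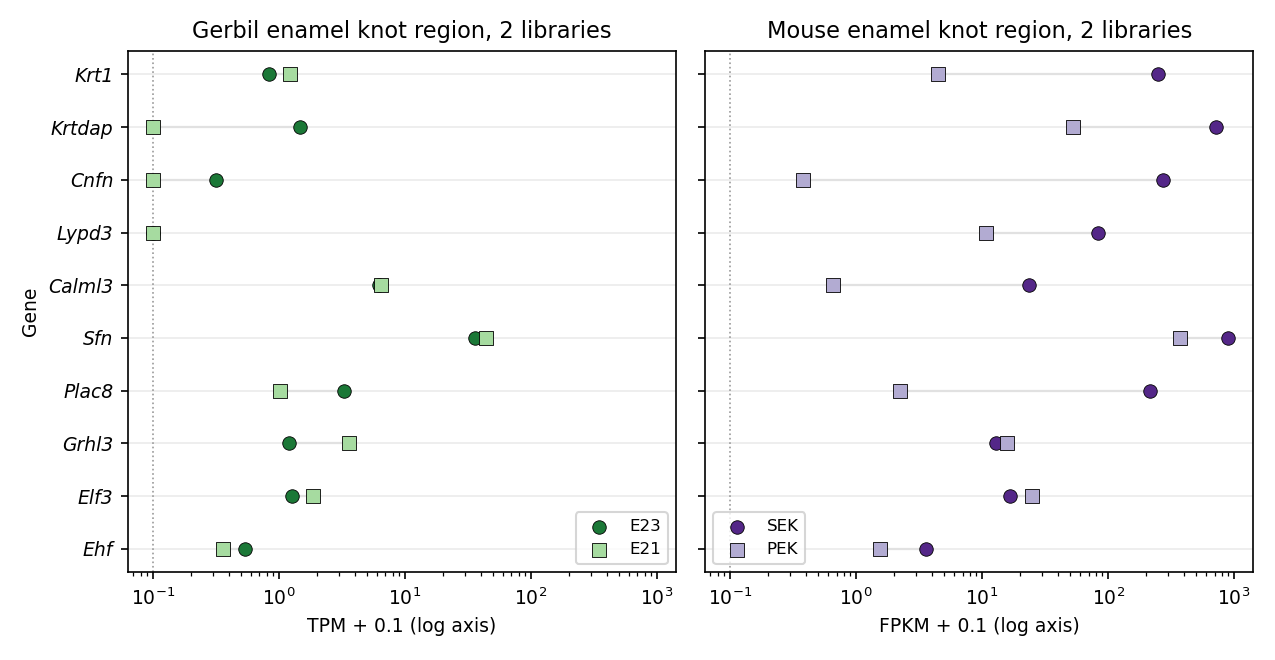
Deposited value plus 0.1 of each gene on a log axis, in TPM for the gerbil libraries E23 and E21 (left) and in FPKM for the mouse libraries SEK and PEK (right), with a line joining the libraries of a species; the dotted line marks a listed value of 0. In mouse the upper 7 genes lie to the right in SEK, while Grhl3, Elf3 and Ehf lie close together, and in gerbil only Sfn exceeds 10 TPM.

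In gerbil the same genes were low in both libraries, with Sfn as the exception. Sfn was at 35.6 TPM in E23 and 44.3 TPM in E21, and Calml3 at 6.17 TPM in E23 and 6.42 TPM in E21. Those 2 genes kept their order in both libraries and lay above the other 8 in each. Krt1 was at 0.73 TPM in E23 and 1.12 TPM in E21. Krtdap (1.36 TPM) and Cnfn (0.22 TPM) had a value in E23 and were listed at 0 in E21, and Lypd3 was listed at 0 in both. Krt1, Krtdap, Cnfn and Lypd3, all abundant in mouse SEK, were thus at 1.36 TPM or less in gerbil. Plac8 was at 3.20 TPM in E23 and 0.93 TPM in E21 (log2 1.12, and 1.68 with a pseudocount of 0.1), and Grhl3 at 1.11 TPM in E23 and 3.51 TPM in E21 (log2 -1.10). Elf3 was at 1.16 TPM in E23 and 1.75 TPM in E21, and Ehf at 0.44 TPM in E23 and 0.26 TPM in E21. The ranges of Plac8, Grhl3 and Elf3 over the 2 libraries overlapped, so their order in gerbil is not defined.

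Only 5 of the 10 genes had a mean of at least 1 TPM in gerbil, namely Calml3, Sfn, Plac8, Grhl3 and Elf3. Plac8 was at least 2-fold higher in E23 and Grhl3 at least 2-fold lower. Among all 12032 gerbil genes over that minimum, 2.46% were at least 2-fold higher in E23 and 3.72% at least 2-fold lower. The median over these genes was -0.21, and with it set to 0 Grhl3 no longer passed 2-fold (log2 -0.88). Over all genes that step changed 296 higher and 447 lower in E23 to 431 higher and 262 lower.

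Between species, 3 of the 10 genes were called higher in mouse, 1 was called higher in gerbil and 6 met neither criterion. For Cnfn and Plac8 the direction itself depended on which mouse library was used, and for Plac8 also on whether E21 was included. For this comparison the 13321 genes matched by symbol were rescaled in each library to a sum of 1000000, called levels, and a trend of the gerbil to mouse ratio with transcript length was removed from log2(level + 1). The mean and its standard error come from 2 libraries per species. A gene was called when both libraries of a species lay at least 2-fold above both of the other, and no test was run, since the tables were normalized separately and 2 against 2 libraries cannot give an exact two-sided p under 0.333. The 1 gene called higher in gerbil and the 3 called higher in mouse stand beside 13.5% and 15.0% of the 10328 genes measured in both tables. Nothing is read from these counts, since the species contrast was also known when the genes were chosen, and the median corrected log2 difference of the 10 was -1.79 against -0.02 over all measured genes.

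Krtdap, Lypd3 and Elf3 were the genes called higher in mouse. The Krtdap level was 11.6 in E23 and listed at 0 in E21, against 1462 in SEK and 119 in PEK, a corrected log2 difference of -5.37 ± 2.37 (SE, n = 2 each). Lypd3 was listed at 0 in both gerbil libraries, against levels of 170.3 in SEK and 24.0 in PEK, and no fold is given. The Elf3 level was 9.86 in E23 and 13.2 in E21, against 33.9 in SEK and 56.0 in PEK (log2 -1.67 ± 0.45). For all 3, the gerbil and mouse libraries did not overlap, which the call itself requires. The size of the Krtdap difference rested on single libraries, with -7.10 without E23, -3.65 without E21, -3.75 without SEK and -7.00 without PEK. The call could not end in these cases. Corrected levels stayed the same, and a call made on all libraries also holds when any of them is dropped. Leaving out a library is therefore no check of the Krtdap call. The Elf3 call ended when the minimum mean level was raised to 10 (log2 -1.59), a step that alters the length trend but not the gene's level.

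Calml3 was the gene called higher in gerbil, at levels of 52.4 in E23 and 48.4 in E21, against 48.5 in SEK and 1.27 in PEK (log2 3.17 ± 2.02). The call ended without the length correction (log2 1.66). It also ended with no filter on low values (log2 2.98). With neither centring nor correction E21 lay just below SEK, and the call ended as well (log2 2.28). The corrected difference was 5.19 without SEK and 1.15 without PEK. The gerbil model of Calml3 spans 450 bases of genome and the mouse locus 1426 bases, and that of Sfn 747 bases in gerbil and 1613 in mouse. Gerbil transcript lengths were not used here, so what these spans mean for values per length was not tested.

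The other 6 genes met neither criterion. Sfn was at levels of 303 in E23 and 334 in E21, against 1844 in SEK and 844 in PEK (log2 -1.30 ± 0.39). Sfn was higher in mouse by the same criterion on uncorrected levels (log2 -2.58) and with no filter on low values (log2 -1.60). On corrected levels the libraries of Sfn, Krt1, Grhl3 and Ehf did not overlap between species, while those of Cnfn and Plac8 did. The share of all genes without overlap was not taken, so nothing is read from this. Krt1 (log2 -3.34 ± 2.73), Cnfn (-2.65 ± 4.09) and Plac8 (-0.85 ± 3.04) had standard errors about as large as their differences or larger. The gap between SEK and PEK made up most of that error. With PEK left out, the differences were larger in size for Krt1 (log2 -6.07), Cnfn (-6.69), Plac8 (-3.76), Sfn (-1.69) and Ehf (-2.63). With SEK left out, 3 were called higher in mouse, and Plac8 was called higher in gerbil (log2 2.06) and Cnfn turned positive without a call (1.38). Grhl3 (log2 -1.30 ± 0.68) and Ehf (-1.92 ± 0.80) had lower means in gerbil with any 1 library left out, which follows from their lack of overlap. The Grhl3 difference was -1.97 without E21, and that of Ehf was -2.29 without E23.

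**Figure D2:**
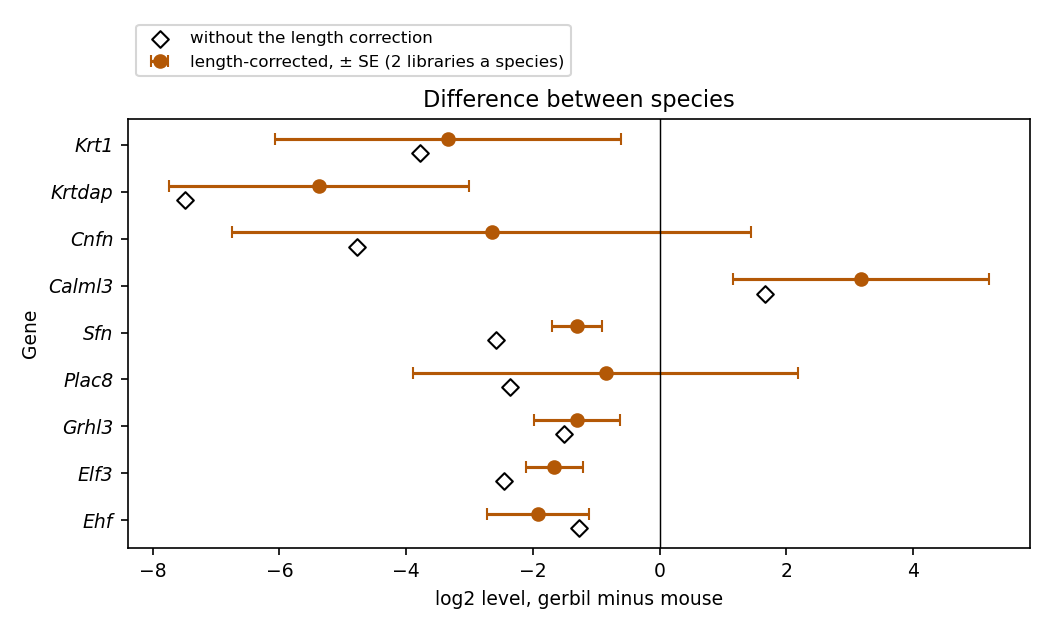
Difference in log2 level, gerbil minus mouse, for 9 of the genes, as length-corrected means with SE from 2 libraries a species (filled circles) and without the length correction (open diamonds); Lypd3, listed at 0 in gerbil, is left out. Points left of 0 are lower in gerbil; Calml3 alone lies to the right, and the bars of Cnfn and Plac8 cross 0.

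Ratios within a library do not depend on how its table was scaled. They were taken on deposited values without the length correction, so a comparison of them between species keeps the length trend. What part that trend has in these ratios was not tested. The FPKM or TPM of Krt1, Krtdap, Cnfn, Lypd3 and Plac8 summed to 3.41% of the basal keratin Krt14 in E23 and 1.5% in E21, against 110% in SEK and 9.09% in PEK. Relative to Epcam, an adhesion protein of epithelial cells, the same sum was 14.5% in E23 and 4.93% in E21, against 487% in SEK and 29.8% in PEK. Both gerbil libraries were below both mouse libraries on each of these scales. That sum leaves out Sfn and also Calml3, the gene called higher in gerbil. The 9 genes other than Sfn summed to 8.91% of Krt14 in E23 and 10.2% in E21, against 114% in SEK and 14.6% in PEK. The sum of Grhl3, Elf3 and Ehf was 1.68% of Krt14 in E23 and 4.04% in E21, against 2.37% in SEK and 5.44% in PEK, and here the species overlapped. They did not overlap when Krt5 was the divisor, with 0.502% in E23 and 0.689% in E21, against 2.83% in SEK and 5.83% in PEK, so the result for the transcription factors depends on the gene they are set against. The structural sum relative to Krt5 was 1.02% in E23 and 0.256% in E21, against 132% in SEK and 9.73% in PEK. Krt14 itself was at 162 TPM in E23 and 137 TPM in E21, and at 1388 FPKM in SEK and 765 FPKM in PEK.

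**Figure D3:**
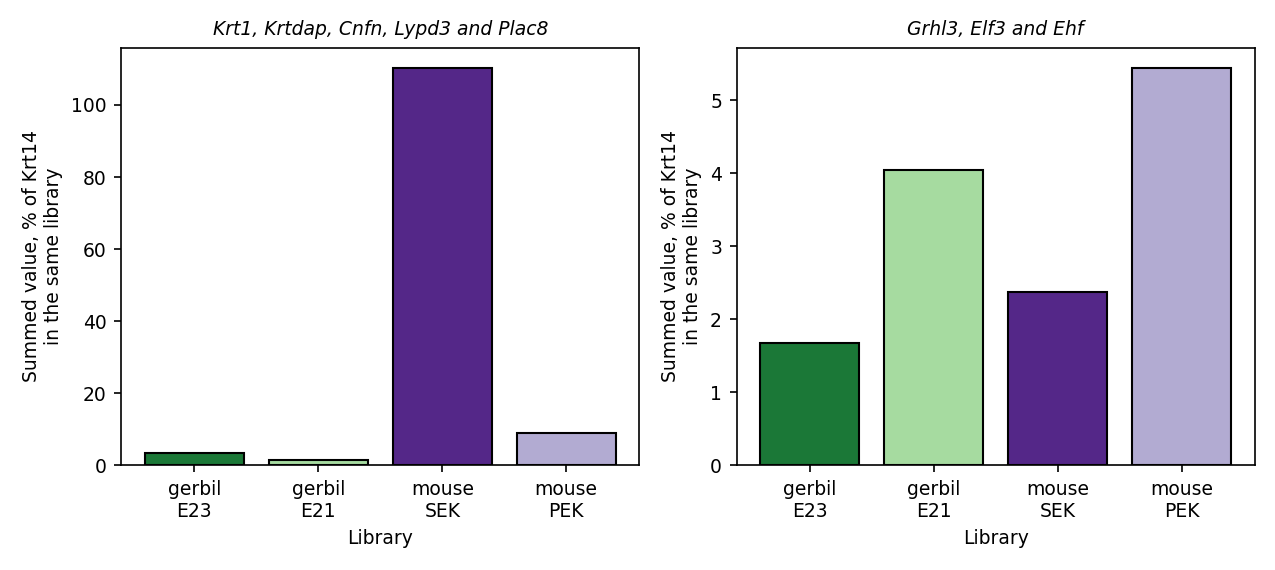
Summed deposited value of 5 structural and surface genes (left) and of 3 transcription factors (right) as a percentage of Krt14 in the same library, for gerbil E23 and E21 (TPM) and mouse SEK and PEK (FPKM). The left sum is 110% in SEK and at most 9.09% elsewhere, and the right sums lie between 1.68% and 5.44% with the species interleaved on this scale.

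Other genes of the surface programme were taken from 4 lists, which were also drawn up with earlier results known. Of the late barrier genes, which cover cornified envelope proteins, their crosslinkers and barrier lipids, 24 of 29 measured in mouse were at least 2-fold higher in SEK and 0 lower, with a median log2 difference of 2.11 against -0.21 over all loci. Of the suprabasal oral and periderm genes, 17 of 35 were higher in SEK and 2 lower (median 0.96). Of the regulators of surface differentiation, 4 of 31 were higher and 6 lower (median -0.11), and of the junction and surface protease genes, 0 of 27 were higher and 7 lower (median -0.46). In gerbil, 1 of 9 measured late barrier genes was higher in E23 and 0 lower, and 2 of 21 suprabasal genes were higher and 1 lower. Of 25 regulators and 20 junction genes, 0 were higher in E23, with 3 and 2 lower. Of all measured mouse loci, 7.04% were at least 2-fold higher in SEK and 17.1% lower. Of all measured gerbil genes, 2.46% were at least 2-fold higher in E23 and 3.72% lower. Nothing is read from the counts of the 4 lists beside these shares.

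**Figure D4:**
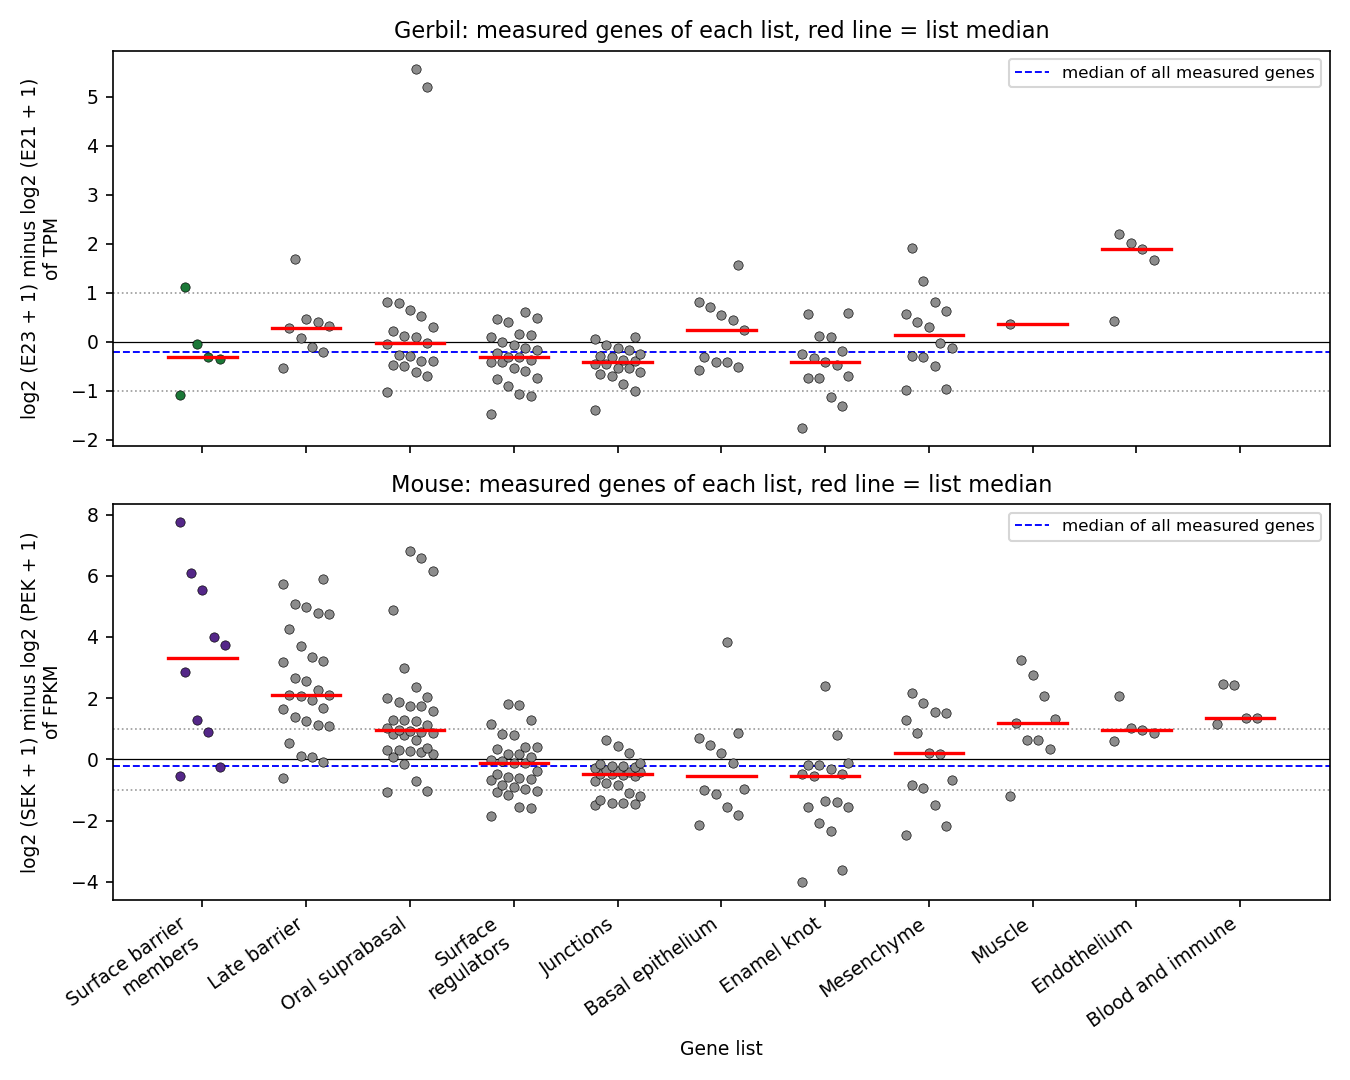
Log2 difference between libraries for each measured gene, E23 minus E21 in gerbil (top) and SEK minus PEK in mouse (bottom), on deposited values with a pseudocount of 1, by gene list; red lines are list medians, dotted lines mark 2-fold, and the dashed line is the median of all measured genes (-0.21 in each species). The barrier genes reach above 5 in mouse, while the 2 high points in gerbil are Krt4 and Krt13, at 5.20 and 5.57.

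Between species, 0 of 21 late barrier genes measured in both tables were called higher in gerbil and 5 higher in mouse, with a median of -0.67 against -0.02 over all genes. The shares of all genes called were 13.5% and 15.0%. Krt10, the partner of Krt1, was at 0.88 TPM in E23 and 0.89 TPM in E21, against 309 FPKM in SEK and 63.7 FPKM in PEK (corrected log2 difference -5.07 ± 1.02). Hal, encoding histidine ammonia-lyase of cornified cells, was at 0.03 TPM in E23 and 0 in E21, against 8.90 FPKM in SEK and 3.49 FPKM in PEK (-5.15 ± 0.89). Sptlc3, a subunit gene of sphingolipid synthesis, was also called higher in mouse (-3.12 ± 0.73). Ly6d, at 205 FPKM in SEK and 5.14 FPKM in PEK, met neither criterion (-2.86 ± 2.91). Ppl, encoding the envelope protein periplakin, did not follow this order, at 13.8 TPM in E23 and 11.3 TPM in E21, against 6.44 FPKM in SEK and 10.4 FPKM in PEK. It met neither criterion (0.67 ± 0.26) but did count as higher in gerbil on uncorrected levels (1.82).

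Suprabasal oral genes went both ways between species, with 6 of 28 called higher in gerbil and 4 higher in mouse, and nothing is read from these counts or the next beside the shares of all genes, 13.5% and 15.0%. Krt23 (log2 2.62 ± 0.51, uncalled on uncorrected levels at 1.27) and the desmosomal cadherin genes Dsg3 (2.35 ± 0.51) and Dsc2 (1.89 ± 0.35) were higher in gerbil. Aqp3, a water and glycerol channel gene (-2.87 ± 0.44), and Krt7 (-2.62 ± 0.53) were higher in mouse. The abundant genes S100a6 (-1.08 ± 0.77) and Lgals7 (0.52 ± 0.23) met neither criterion, although on uncorrected levels both counted as higher in mouse (-3.13 and -1.60). Of 28 regulators, 0 were higher in gerbil and 7 higher in mouse. Cebpb (-4.70 ± 0.70) and Id1 (-3.04 ± 0.17) were among these, as was Pou3f1, which was listed at 0 in gerbil and at 4.58 FPKM in SEK and 3.99 FPKM in PEK. Trp63, the p63 gene that maintains stratified epithelium (-1.08 ± 0.25, and 0.35 uncorrected), met neither criterion. Of 25 junction and protease genes, 3 were higher in gerbil, namely Cldn12 (1.70 ± 0.14), the E-cadherin gene Cdh1 (1.54 ± 0.05) and the desmoplakin gene Dsp (1.52 ± 0.15), and 8 were higher in mouse. Those 8 held Cldn6 (-4.70 ± 1.24), the protease gene St14 (-3.42 ± 0.27) and Tjp3 (-3.18 ± 0.91), while Spint2 (-1.14 ± 0.47) and Epcam (-0.68 ± 0.07) met neither criterion but on uncorrected levels counted as higher in mouse (-2.67 and -1.49).

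Krt4 and Krt13, the keratin pair of suprabasal oral lining, were picked out after their values were seen, because in each species they had a value in 1 library far above the other. Krt4 was at 35.8 TPM in E23 and listed at 0 in E21, and at 116 FPKM in SEK and 0.225 FPKM in PEK. Krt13 was at 46.6 TPM in E23 and listed at 0 in E21, and at 134 FPKM in SEK and 0.216 FPKM in PEK. Of the 21 genes of their list with a mean of at least 1 TPM in gerbil, Krt4 and Krt13 were the 2 at least 2-fold higher in E23. The list median was -0.03. Below that mean, Psca had the same order, at 0.92 TPM in E23 and listed at 0 in E21. In mouse it was at 70.1 FPKM in SEK and listed at 0 in PEK. Anxa8 of the same list was at 5.07 TPM in E23 and 11.4 TPM in E21.

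Markers of other cells in the dissected region were counted between the same libraries. Among all measured mouse loci, 7.04% were at least 2-fold higher in SEK and 17.1% lower. Among all measured gerbil genes, 2.46% were at least 2-fold higher in E23 and 3.72% lower. Nothing is read from the marker counts beside these shares. The basal keratin gene Krt5 was at 540 TPM in E23 and 801 TPM in E21. In mouse Krt5 was at 1161 FPKM in SEK and 714 FPKM in PEK. The knot gene Shh was at 140 TPM in E23 and 128 TPM in E21. In mouse Shh was at 297 FPKM in SEK and 416 FPKM in PEK. Some other knot genes were low in gerbil. Fgf20 was listed at 0 in E23 and at 0.75 TPM in E21, and Fgf4 was at 1.86 TPM in E23 and 2.58 TPM in E21. Of 16 knot genes compared between species, the call went to mouse for 5, to gerbil for 0 and to neither for 11. Of all genes measured in both species, 15.0% were called higher in mouse and 13.5% higher in gerbil. Nothing is read from these counts. Whether the dissected cells had the labelled identity was not tested. Of 9 measured muscle genes, 5 were at least 2-fold higher in SEK and 1 lower, and the list summed to 387 FPKM in SEK and 83.0 FPKM in PEK. Of 5 measured blood and immune genes, all 5 were higher in SEK, with a sum of 2908 FPKM in SEK and 534 FPKM in PEK that is mostly haemoglobin. Endothelial genes were higher in 2 of 5 cases (107 FPKM in SEK and 50.8 FPKM in PEK), and mesenchyme genes were higher in 5 and lower in 3 of 14 cases (778 FPKM in SEK and 574 FPKM in PEK). Of 17 enamel knot markers, 1 was higher in SEK and 8 were lower (2165 FPKM in SEK and 2844 FPKM in PEK), and of 12 basal epithelium markers 1 was higher and 5 lower, although their sum was higher in SEK (3467 FPKM in SEK and 2330 FPKM in PEK). The 1 basal marker was Krt15, at 167 FPKM in SEK and 10.7 FPKM in PEK. None of these markers was listed at 0 in a mouse library. Of 3 measured neural genes, 1 was higher in SEK, with 1 of 7 list genes at 0 there. In gerbil, 4 of 5 measured endothelial genes were higher in E23, with list sums of 20.8 TPM in E23 and 5.49 TPM in E21, and 2 at 0 in E21, and 2 of 14 mesenchyme genes were higher, with sums of 421 TPM in E23 and 272 TPM in E21. Of 15 knot markers measured in gerbil, 0 were higher in E23 and 3 lower (325 TPM in E23 and 366 TPM in E21), and of 11 basal markers 1 was higher (1007 TPM in E23 and 1241 TPM in E21). The simple keratins Krt8, Krt18 and Krt19 did not pass 2-fold between the libraries of either species. What part these cells have in the values of the barrier genes was not tested.

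In position, Lypd3, Cnfn and Krtdap lie on mouse chromosome 7 within 6.15 Mb, and Sfn and Grhl3 on chromosome 4 at a distance of 1.94 Mb, in the coordinates of the mouse table (GRCm38). Lypd3 (ENSMUSG00000057454) runs from 24636550 to 24641118, Cnfn (ENSMUSG00000063651) from 25367620 to 25369724 and Krtdap (ENSMUSG00000074199) from 30787896 to 30791097. Krt1 (ENSMUSG00000046834) runs from 101845428 to 101850786 on chromosome 15, Plac8 (ENSMUSG00000029322) from 100553725 to 100572245 on chromosome 5 and Sfn (ENSMUSG00000047281) from 133600556 to 133602168 on chromosome 4. Grhl3 runs from 135541887 to 135573630 on chromosome 4, Elf3 from 135253575 to 135258568 on chromosome 1, Ehf from 103263433 to 103303278 on chromosome 2 and Calml3 from 3802893 to 3804318 on chromosome 13. The measured loci within 100 kb of the 10 genes numbered 39, of which 9 were at least 2-fold higher in SEK and 5 lower, beside 7.04% and 17.1% of all measured mouse loci. Dmkn, which lies 6833 bases from Krtdap, was at 126 FPKM in SEK and 28.9 FPKM in PEK, and Sbsn, 31761 bases away, at 50.5 FPKM in SEK and 23.4 FPKM in PEK. Both encode secreted proteins of stratified epithelium. Krt4 lies 67750 bases from Krt1, and in the same stretch Krt73 was at 24.3 FPKM in SEK and 21.2 FPKM in PEK and Krt79 at 8.13 FPKM in SEK and 29.1 FPKM in PEK. The keratin genes beside Krt1 thus did not move together.

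Genes whose pattern was most like the mean of the 10 were found by the root mean square distance of centred corrected log2 levels over the 4 libraries, among 8235 other genes averaging a level of 10 or more. The mean of the 10 genes was at -0.77 in E23, -1.29 in E21, 2.54 in SEK and -0.47 in PEK. The 5 nearest genes were Ibsp (distance 0.16), Dync1i1 (0.33), Tnnt3 (0.34), Duoxa1 (0.35) and Slc35e4 (0.40). Ibsp, which encodes bone sialoprotein, was at 1.21 TPM in E23 and 1.19 TPM in E21 and at 73.2 FPKM in SEK and 8.36 FPKM in PEK. Tnnt3 encodes a troponin of fast skeletal muscle and Duoxa1 a maturation factor of a surface oxidase. With 4 libraries, this likeness mostly says that a gene was high in SEK. Among the 10 genes, Calml3 was farthest from the common pattern, at 1.61 in E23, 1.57 in E21, 0.43 in SEK and -3.61 in PEK.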

How the data were processed

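Programs listed in the submitters' processing notes, with no role or order, are cutadapt 2.8, STAR in version 2.7.1a and RSEM in version 1.3.1; the builds listed are mm10 and GRCm38. No gerbil build is given in the labels. The authors deposited mouse values as FPKM per locus and gerbil values as TPM per gene, in 2 tables normalized separately. The gerbil table has 4 more per-sample columns, which were not used. Depth was not analysed here, so no counting interval or detection limit is given.

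Python 3.11.15 with pandas 2.3.3 and numpy 2.4.6 was used. Between libraries of a species, log2(value + 1) was compared for rows with a mean of at least 1. Between species, genes matched by symbol were rescaled to 1000000, kept at a mean level of at least 1, and corrected for transcript length (exon union, GENCODE release M21 basic annotation) by medians in 40 bins. The median uncorrected log2 difference was -1.77 in the 1033 shortest genes and 1.43 in the 1032 longest. The procedure was tested on simulated data. No test was planned or run on the real values. From each of 4 lists, up to 3 called genes per direction and 2 abundant uncalled genes are named, beside the 10 genes and 5 of like pattern. Some genes that this rule names are not reported here. The 10 genes, the lists and the length correction were chosen with earlier results of these data known. Alternatives were another pseudocount, other filters, no length correction, no centring and each library left out.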

Additional observations from a re-analysis of the deposited data

How the results depend on the processing

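No paired analysis was possible because the columns carry no replicate numbers. Of the 10 genes, 0 counted as higher in gerbil on uncorrected levels, with neither centring nor correction, or with no filter on low values (1 as reported). Those called higher in mouse numbered 3 to 8 when a library was left out (3 as reported), the highest without mouse PEK. Of the genes of the 4 other lists, 9 were called higher in gerbil and 24 higher in mouse as reported. Higher in gerbil were 15 with neither centring nor correction and 12 to 15 with a library left out, and higher in mouse were 28 to 44 with a library left out, the highest again without PEK. With 1 library left in a species the criterion asks less and called genes stay called, so these counts could not fall. No counts over all genes are given for a library left out. Without centring or correction, 3039 of all genes were called higher in gerbil and 1263 higher in mouse, against 1395 and 1545 as reported. In gerbil, 2 of the 10 genes were at least 2-fold higher in E23 with no filter on low values (1 as reported), and 0 were lower with the median ratio set to 0 (1 as reported). Of 89 alternative values of single genes between species, 86 kept their sign, and 44 of 45 did so between libraries. Many of these could not change sign. Another pseudocount never reverses a ratio between libraries, and the filter leaves it unchanged. Leaving out 1 library cannot reverse a gene whose libraries do not overlap between species. The tally is therefore not a measure of stability. The cause of the other changes was not tested.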

Other observations

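The mouse table also covers the gene cluster on chromosome 3 that encodes many cornified envelope proteins, taken here from S100a1 to S100a11, positions 90511034 to 93526287, a window chosen after the values of its genes were seen. Of 31 loci there with a mean of at least 1 FPKM, 20 were at least 2-fold higher in SEK and 1 was at least 2-fold lower, with a median log2 difference of 1.76. Over all measured mouse loci the shares were 7.04% and 17.1%. Sprr3, a small proline-rich envelope protein gene, was at 58.4 FPKM in SEK and listed at 0 in PEK, as were Crct1 (52.6 FPKM in SEK) and Sprr1b (26.7 FPKM in SEK). Sprr1a was at 101 FPKM in SEK and 2.81 FPKM in PEK, and Lor, encoding the envelope protein loricrin, at 136 FPKM in SEK and 12.3 FPKM in PEK. The calcium-binding S100 genes of the window did not all behave alike. S100a16 was at 300 FPKM in SEK and 122 FPKM in PEK, and S100a9 at 3.04 FPKM in SEK and 0.114 FPKM in PEK. S100a13 was at 20.3 FPKM in SEK and 32.7 FPKM in PEK. S100a11 was at 1942 FPKM in SEK and 1196 FPKM in PEK, and S100a6 at 437 FPKM in SEK and 903 FPKM in PEK. Lor, Sprr3 and Sprr1b matched no gerbil row by symbol and were not analysed there, while Sprr1a was at 2.22 TPM in E23 and listed at 0 in E21 and Crct1 was listed at 0 in both.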
